A study of Mus musculus with 6 samples.

Results

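The aminoacyl-tRNA synthetases are the enzymes that join each amino acid to its tRNA before the ribosome can use it. Their transcripts were measured in livers of mice given a fruit extract and of mice given water. Members were found by symbol: every row of the deposited table whose gene symbol is a capital letter followed by "ars", with an optional 1, 2, l, l2, a or b, and the row Eprs. This gave 38 genes of 22899 rows, of which 21 encode cytosolic enzymes and 17 mitochondrial ones. A symbol ending in 2 was read as mitochondrial, apart from Tarsl2, whose product is a second cytosolic-type threonyl-tRNA synthetase. The rule itself uses no measured value, but the members, classes and related gene lists were chosen with earlier results of these data known. Their shares, set beside those of all tested genes, are therefore descriptive.

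Mammals keep largely separate sets of these enzymes for the cytosol and the mitochondrion, all encoded in the nucleus. Gars and Kars serve both and were counted here as cytosolic. Several cytosolic members sit in a multi-synthetase complex with scaffold proteins, and the others work alone or in small assemblies. Many of the cytosolic genes are known targets of the transcription factor ATF4, which the kinase GCN2 induces when uncharged tRNA accumulates. The mitochondrial enzymes charge the tRNAs that the mitochondrial genome encodes, for the synthesis of subunits of the respiratory chain.

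All mice were of the outbred ICR stock. The extract livers came from mice that were gavaged for 1 week with 1 g/kg per day of a Chebulae Fructus preparation, the ethyl acetate fraction of the hydrosoluble extract. Chebulae Fructus is a medicinal drug made from dried Terminalia chebula fruit. The water livers came from mice given water at 10 ml/kg by the same route for 1 week. Each group held 3 liver libraries, called extract 1 to 3 and water 1 to 3. The labels give neither sex nor age. They also do not say whether the libraries of a group come from different mice, so each p-value rests on library-to-library spread, which may be technical.

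The values were taken as FPKM, a level per transcript length and sequencing depth, because the library sums differed, from 517984 to 583245. Read totals are unknown, so the counting error behind a value is unknown too. Values were present for 17738 genes. The 10282 genes at 1 FPKM or above in 3 or more libraries entered limma's test on log2(FPKM + 1), a scale that understates the fold change of low genes. Along the first principal component extract 3 was the extract library nearest to water, and along the second water 1 stood apart, so counts are also given without each of them. The sum over 10 hepatocyte markers ran from 65741 to 77767 FPKM in extract livers and from 82488 to 88375 FPKM in water livers. Without Alb, the albumin gene, the other 9 summed to 18064 to 20370 FPKM in extract and 17140 to 24405 FPKM in water livers, which overlapped, and 4 of the 10 had positive log2 fold changes. In whole liver, a change in the number of cells of a type cannot be told apart from a change in RNA per cell.

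Aars, Cars, Lars, Mars, Yars and Nars among the cytosolic synthetases and Sars2 among the mitochondrial ones had the highest levels in extract livers relative to water livers, and most members of both classes differed little. No member passed limma's Benjamini-Hochberg threshold of 0.05 over all tested genes, a threshold that 5 genes or 0.0486% passed. At limma's unadjusted p below 0.05 there were 7 of 37 tested members (18.9%), all higher in extract, against 6.50% of all tested genes higher and 3.82% lower. Those 7 were 6 of 21 cytosolic members and 1 of 16 tested mitochondrial members. With libraries scaled to equal medians, 7 members were higher and 2, Hars2 and Wars2, lower at that level. The median log2 fold change was 0.15 for the cytosolic members and 0.10 for the mitochondrial ones, against 0.03 for all tested genes, and the difference between the classes was not tested. The gap between these medians varied with the setting. With 0.1 in place of 1 added to FPKM they were 0.16 and 0.14. Without extract 1 they were 0.103 and 0.095, and without water 1 they were 0.158 and 0.068.

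The 3 extract values lay above all 3 water values for 15 tested members (40.5%), where 10.0% of all tested genes did so. They lay below for 1 member, Wars2, against 5.88% of all tested genes. With median centring these counts were 10 and 2, against 7.13% and 8.48% of all tested genes. Without extract 3 they were 16 and 1, against 15.4% and 11.2%, and without water 1 they were 17 and 2, against 20.4% and 13.5%. The log2 fold change was above 0 for 33 of the 37 tested members (89.2%), against 57.5% of all tested genes.

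**Figure D1:**
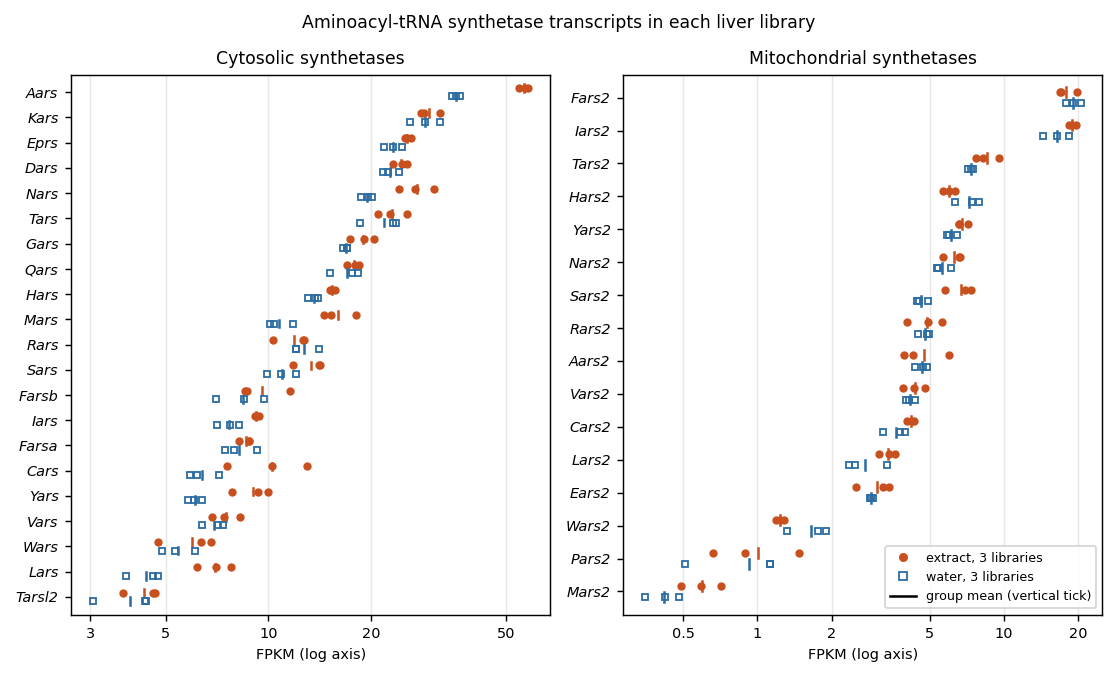
FPKM on a log axis for 21 cytosolic (left) and 16 mitochondrial (right) synthetases, each row with 3 extract libraries (filled circles, above) and 3 water libraries (open squares, below) and a vertical tick at each group mean. Aars stands at the top with its extract values of 54.2 to 58.0 FPKM well above its water values of 34.6 to 36.4 FPKM, while the extract and water points of Kars, Tars and most mitochondrial members overlap.

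Levels per length ranged widely. The cytosolic members averaged between 4.12 FPKM (Tarsl2) and 45.9 FPKM (Aars) over all libraries, with a median of 12.3 FPKM. The mitochondrial members averaged between 0.51 FPKM (Mars2) and 18.6 FPKM (Fars2), with a median of 4.70 FPKM. Aars was the most abundant member in each of the 6 libraries. Kars, Eprs, Dars, Nars and Tars followed with means of 22.5 to 29.2 FPKM, and neighbours in that order overlapped in range. The median coefficient of variation between replicates was 10.0% in extract and 9.49% in water livers for cytosolic members, and 9.03% and 7.39% for mitochondrial ones. Over all tested genes it was 11.1% in extract and 14.9% in water livers.

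Summed over the 21 cytosolic members, the level was 366, 341 and 346 FPKM in extract 1 to 3, against 288, 295 and 289 FPKM in water 1 to 3. All extract sums lay above all water sums, with a ratio of means of 1.21. Of the mean difference of 59.9 FPKM, Aars alone accounted for 20.7 FPKM. The 15 cytosolic members other than the 6 at unadjusted p below 0.05 summed to 225 ± 7.19 FPKM in extract and 208 ± 4.13 FPKM in water livers (mean ± SD, n = 3 each). The 17 mitochondrial members summed to 102, 102 and 103 FPKM in extract livers, against 92.1, 97.7 and 96.8 FPKM in water livers, a ratio of means of 1.07. The sums of those 15 cytosolic members and of the mitochondrial members also lay higher in all extract than in all water libraries.

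Aars encodes cytosolic alanyl-tRNA synthetase, which charges tRNAs with alanine and also edits off serine attached by mistake. It had 58.0, 56.5 and 54.2 FPKM in extract 1 to 3, against 34.6, 35.6 and 36.4 FPKM in water 1 to 3. Within each group the values lay close together, and the groups stood far apart. The log2 fold change was 0.65 (standard error 0.10, limma adjusted p = 0.0882), and its p ranked 26 of 10282 genes. Across the alternatives tried, the log2 fold change of Aars stayed between 0.61 and 0.67 and the limma adjusted p between 0.073 and 0.367. The Aars gene model shares 1326 exonic bases on the same strand with its neighbour Exosc6, an exosome subunit, so reads there could be assigned to either. Exosc6 had 3.67, 3.84 and 3.63 FPKM in extract livers, against 6.35, 3.51 and 4.23 FPKM in water livers.

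The Aars gene (gene ID 234734) spans chromosome 8 from 111027778 to 111055569 of GRCm38.p6, on the plus strand. The promoter windows of the family were searched for TGATGNAA, in either orientation, the core of the amino acid response element that ATF4 is known to bind.

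The search covered windows from 250 bases before to 50 after the start that the RefSeq promoter table gives for each gene, on both strands. For Aars and Yars that start lies inside the gene span, which also covers transcripts that begin further upstream. Of the 38 members 28 were matched by gene ID, and 5 of these held the motif, all cytosolic: Aars, Yars, Iars, Tars and Gars. Among all genes with a RefSeq promoter window, 4.51% held it. Of the 28 matched genes of the ATF4 amino acid response list, 9 held it. No window of the 14 matched mitochondrial members did. Cars, Hars, Hars2, Lars, Nars, Pars2, Rars, Vars and Wars were among those not matched. For each of the 5 members the match nearest the window's end is given with 11 flanking bases on each side, 5′ to 3′ on the gene's own strand, with the match in capitals, so that the copies can be compared.
Aars (chr8:111033840-111033869, plus strand): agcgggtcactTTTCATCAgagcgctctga
Yars (chr4:129189895-129189924, plus strand): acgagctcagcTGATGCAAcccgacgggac
Iars (chr13:49682126-49682155, plus strand): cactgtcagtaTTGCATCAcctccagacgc
Tars (chr15:11399655-11399684, minus strand): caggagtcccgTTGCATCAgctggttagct
Gars (chr6:55037960-55037989, plus strand): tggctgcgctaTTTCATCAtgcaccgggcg

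In 4 of the 5 members with a match (all but Tars) the extract values lay above all water values. The same held for 8 of the 23 matched members without one, Mars, Sars2 and the untested Mars2 among them, and for 10.0% of all tested genes. A match of letters is a description of the window and not evidence of binding.

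Among the other cytosolic enzymes outside the multi-synthetase complex, Yars, Nars and Cars stood highest in extract livers relative to water. Yars, which charges tRNA with tyrosine, had 9.98, 9.30 and 7.82 FPKM in extract 1 to 3, against 6.36, 5.81 and 6.03 FPKM in water 1 to 3. All extract values were above all water values, with extract 3 the lowest of them (log2 fold change 0.50, standard error 0.12, limma adjusted p = 0.211). Nars, the asparaginyl-tRNA synthetase, had 30.7, 26.9 and 24.1 FPKM in extract livers, against 18.7, 20.1 and 19.6 FPKM in water livers. Again the groups did not overlap and extract 3 was lowest among the extract libraries (log2 fold change 0.46, standard error 0.12, limma adjusted p = 0.239).

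Cars, the cysteinyl-tRNA synthetase, had the highest coefficient of variation of the cytosolic members in extract livers, at 26.5%. It had 13.01, 10.3 and 7.56 FPKM in extract 1 to 3, against 5.87, 6.15 and 7.14 FPKM in water 1 to 3. Extract 3 was only just above water 3, and the log2 fold change was 0.58 (standard error 0.18, limma adjusted p = 0.323). Leaving out extract 3 gave 0.77 and leaving out extract 1 gave 0.41, and across all alternatives tried the limma adjusted p ran from 0.116 to 0.675.

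Hars and Gars also lay higher in all extract than in all water libraries, but by little. Hars, the histidyl-tRNA synthetase, had 15.7, 15.2 and 15.1 FPKM in extract livers, against 13.7, 13.1 and 14.0 FPKM in water livers (log2 fold change 0.16, limma adjusted p = 0.637). Gars, whose gene supplies glycyl-tRNA synthetase to both the cytosol and mitochondria, had 20.4, 17.3 and 19.1 FPKM in extract livers, against 16.99, 16.6 and 17.1 FPKM in water livers (log2 fold change 0.15, limma adjusted p = 0.706). Limma's 95% interval included 0 for both, and for Gars it ran from -0.09 to 0.40.

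Sars, for serine, had 14.2, 11.8 and 14.1 FPKM in extract livers, against 12.1, 10.9 and 9.93 FPKM in water livers, and extract 2 lay below water 1 (log2 fold change 0.26, limma adjusted p = 0.528). Tars, for threonine, had 22.8, 25.6 and 21.0 FPKM in extract livers, against 18.6, 23.2 and 23.7 FPKM in water livers. The Tars groups overlapped throughout, and the log2 fold change was 0.08. Its interval, from -0.23 to 0.40, leaves a difference of the size seen for Aars outside it.

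Farsa and Farsb encode the subunits of phenylalanyl-tRNA synthetase. Farsa had 8.19 to 8.79 FPKM in extract livers and 7.46 to 9.25 FPKM in water livers, and Farsb had 8.55 to 11.6 FPKM in extract livers and 7.01 to 9.71 FPKM in water livers. Vars, for valine, had 6.83 to 8.25 FPKM in extract livers and 6.36 to 7.34 FPKM in water livers. The additional threonine enzyme Tarsl2 had 3.73 to 4.64 FPKM in extract livers and 3.05 to 4.36 FPKM in water livers. All of these groups overlapped, as did 11 of the 21 cytosolic members in all, with log2 fold changes from -0.09 to 0.26.

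Within the multi-synthetase complex, Lars, Mars, Iars and Eprs lay higher in all extract libraries and the other enzyme subunits overlapped. Lars, which charges leucine and is known in human cells as a leucine sensor, had 7, 6.15 and 7.76 FPKM in extract 1 to 3, against 3.81, 4.59 and 4.74 FPKM in water 1 to 3. The lowest extract library was well above the highest water library (log2 fold change 0.57, standard error 0.13, limma adjusted p = 0.201). Mars, the methionyl-tRNA synthetase that also charges the initiator tRNA, had 18.03, 15.3 and 14.6 FPKM in extract livers, against 11.8, 10.1 and 10.4 FPKM in water livers. These groups did not overlap either (log2 fold change 0.53, standard error 0.12, limma adjusted p = 0.205). Mars shares 68 exonic bases with Ddit3, a stress transcription factor gene on the opposite strand, which had 5.59, 6.59 and 5.29 FPKM in extract livers, against 12.96, 4.51 and 5.27 FPKM in water livers.

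Iars, for isoleucine, had 9.36, 9.12 and 9.16 FPKM in extract livers, against 7.04, 7.73 and 8.18 FPKM in water livers. The extract libraries were nearly equal and all above water (log2 fold change 0.24, limma adjusted p = 0.488). Eprs, a single protein that charges both glutamate and proline, had 26.2, 25.2 and 25.4 FPKM in extract livers, against 24.7, 21.8 and 23.2 FPKM in water livers. Its groups were separate by a small margin (log2 fold change 0.14, limma adjusted p = 0.754). Its 95% interval, from -0.11 to 0.38, included 0.

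The other enzymes of the complex showed no separation of the groups. Kars, for lysine, which like Gars also serves mitochondria, had 28.1, 28.7 and 31.9 FPKM in extract livers, against 28.8, 31.8 and 26.1 FPKM in water livers. Dars, for aspartate, had 23.1 to 25.5 FPKM in extract livers and 21.8 to 24.2 FPKM in water livers. Qars, for glutamine, had 17 to 18.5 FPKM in extract livers and 15.1 to 18.3 FPKM in water livers. Rars, for arginine, was the cytosolic member with the lowest fold change, at 10.3 to 12.7 FPKM in extract livers and 12.01 to 14.1 FPKM in water livers.

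Over the 8 enzymes of the complex, 0 passed limma's adjusted threshold and the median log2 fold change was 0.12. At limma's unadjusted p below 0.05, 2 were higher and 0 lower, against 6.50% and 3.82% of all tested genes. The 3 scaffold genes had a median of 0.16 and none passed, with 0 at unadjusted p below 0.05. Of these, Eef1e1 had 7.65, 5.84 and 6.32 FPKM in extract livers, against 5.78, 5.32 and 4.65 FPKM in water livers. Aimp2 also lay higher in all extract libraries, by 0.15 on the log2 scale. Aimp1 overlapped, with water 1 at 24.6 FPKM above all extract libraries.

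**Figure D2:**
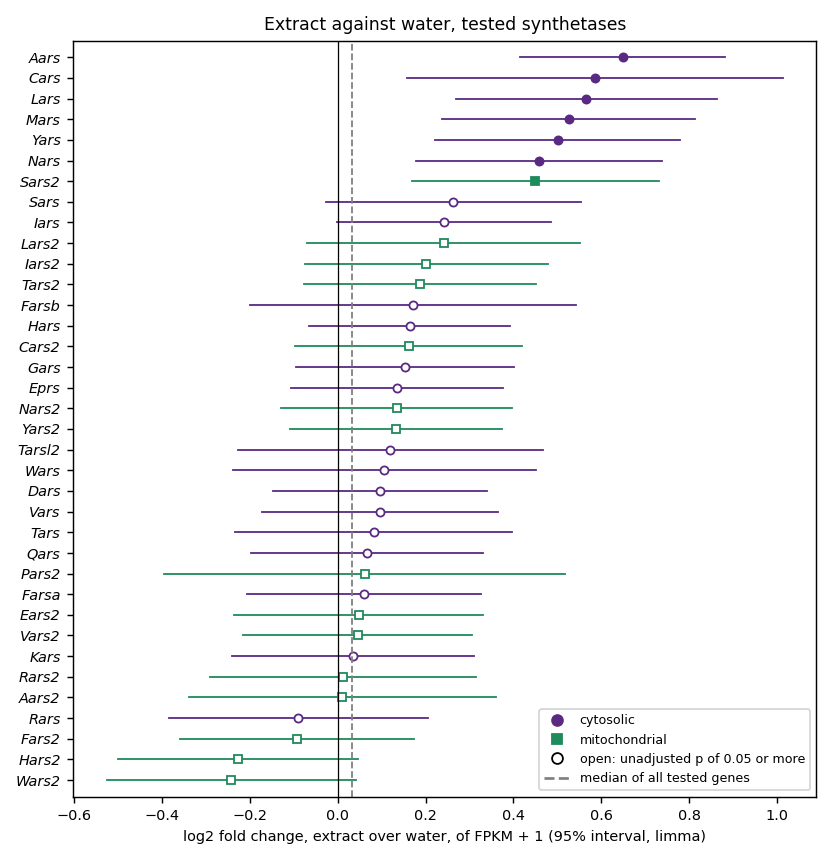
Log2 fold change of FPKM + 1, extract over water, with limma's 95% interval for 36 tested synthetases, in order of size; circles are cytosolic and squares mitochondrial enzymes, filled where limma's unadjusted p was below 0.05, and the dashed line marks the median of all tested genes at 0.03. The 7 filled points, 6 of them cytosolic, lie between 0.45 and 0.65 and stand apart from the next member, Sars at 0.26.

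Of the 17 mitochondrial members 16 were tested, and Sars2 was the only member of this class at unadjusted p below 0.05. Sars2 charges the mitochondrial serine tRNAs. It had 5.77, 6.95 and 7.4 FPKM in extract 1 to 3, against 4.51, 4.91 and 4.45 FPKM in water 1 to 3. Here extract 3 was the highest library, unlike in Yars, Nars and Cars (log2 fold change 0.45, standard error 0.12, limma adjusted p = 0.239).

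Iars2, Tars2, Cars2 and Yars2 lay higher in all extract than in all water libraries by small amounts. Iars2 had 18.9, 18.5 and 19.6 FPKM in extract livers, against 14.5, 16.5 and 18.4 FPKM in water livers. Water 3 nearly reached the extract range (log2 fold change 0.20, limma adjusted p = 0.627), and 2034 exonic bases of Iars2 are shared with Rab3gap2 on the opposite strand. Tars2 had 9.58, 8.27 and 7.72 FPKM in extract livers, against 7.34, 7.51 and 7.16 FPKM in water livers (log2 fold change 0.19, limma adjusted p = 0.641). Cars2 and Yars2 had log2 fold changes of 0.16 and 0.13, with limma adjusted p of 0.704 and 0.762.

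Wars2 and Hars2, for tryptophan and histidine, were the members lowest in extract relative to water. Wars2 had 1.28, 1.19 and 1.24 FPKM in extract livers, against 1.32, 1.89 and 1.76 FPKM in water livers. The groups did not overlap, though water 1 was close to the extract values (log2 fold change -0.24, limma adjusted p = 0.559). Hars2 had 6.32, 5.68 and 6.01 FPKM in extract livers, against 6.32, 7.93 and 7.41 FPKM in water livers, with water 1 equal to extract 1 (log2 fold change -0.23, limma adjusted p = 0.570). Hars2 and Hars are neighbours on chromosome 18, on opposite strands, and share 195 exonic bases at the end where both genes begin.

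The other 9 tested mitochondrial members had overlapping groups. Fars2, the most abundant of the class and a single-chain phenylalanyl-tRNA synthetase, had 16.97, 19.8 and 17.1 FPKM in extract livers, against 20.5, 19.1 and 17.9 FPKM in water livers. Aars2, the mitochondrial counterpart of Aars, had 4.29, 6.01 and 3.94 FPKM in extract livers, against 4.35, 4.89 and 4.69 FPKM in water livers. Its log2 fold change was 0.01 with a 95% interval from -0.34 to 0.36, and its sign turned with the scaling. Lars2 had 3.12 to 3.61 FPKM in extract livers and 2.36 to 3.35 FPKM in water livers, with water 2 alone reaching the extract range (log2 fold change 0.24, limma adjusted p = 0.606). Nars2 had 5.65 to 6.62 FPKM in extract livers and 5.37 to 6.11 FPKM in water livers (log2 fold change 0.13, limma adjusted p = 0.788). Rars2 had 4.04 to 5.63 FPKM in extract livers and 4.5 to 4.97 FPKM in water livers. Of the remainder, Vars2 and Ears2 lay between 2.52 and 4.81 FPKM and Pars2 between 0.51 and 1.47 FPKM over all 6 libraries. Mars2 was below the filter in every library and was not tested; it had 0.59, 0.71 and 0.49 FPKM in extract livers, against 0.35, 0.42 and 0.48 FPKM in water livers.

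In 15 pairs a cytosolic enzyme was also set against a mitochondrial partner within the same library. Such a ratio removes any factor that scales a whole library. Partners were matched by symbol, and Eprs was set against Ears2 but not against Pars2. Farsa, Farsb, Tarsl2, Gars, Kars and Qars were not paired. The cytosolic transcript was the more abundant in every library for 13 of 15 pairs. Iars lay at 0.44 to 0.50 of the level of Iars2 in all libraries, and Yars and Yars2 were nearly equal in water livers. Farsa and Farsb, which were not among the pairs, also lay below Fars2 in every library. They had 7.01 to 11.6 FPKM, against 16.97 to 20.5 FPKM for Fars2. Over the whole classes, the cytosolic sum was 3.59, 3.34 and 3.37 times the mitochondrial sum in extract 1 to 3, against 3.13, 3.02 and 2.99 times in water 1 to 3.

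The ratio differed without overlap between groups for 3 of the 15 pairs, each time higher in extract livers. Ratios of other genes were not computed, so no background share stands beside this count. Aars stood at 13.5, 9.40 and 13.8 times Aars2 in extract livers, against 7.94, 7.27 and 7.77 times in water livers. Hars stood at 2.48, 2.68 and 2.51 times Hars2 in extract livers, against 2.17, 1.65 and 1.89 times in water livers. Yars stood at 1.39, 1.41 and 1.19 times Yars2 in extract livers, against 1.06, 0.90 and 1.03 times in water livers. The two-sided exact permutation p was 0.1 for each of these pairs, the smallest that 3 against 3 libraries allow, and 0.5 after Benjamini-Hochberg adjustment over the 15 pairs. For Sars and Sars2 the difference in the log2 ratio was -0.25, the lowest of all pairs, with exact permutation p = 0.3.

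**Figure D3:**
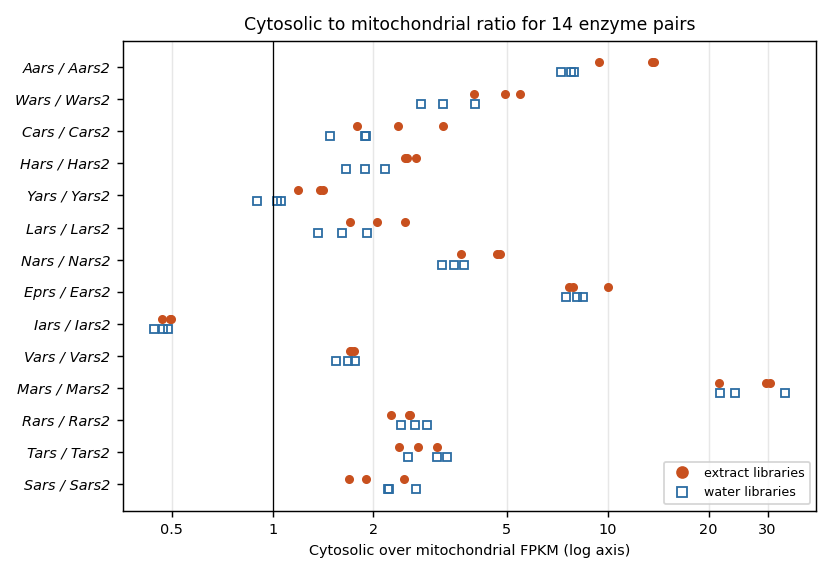
Ratio of cytosolic to mitochondrial FPKM on a log axis for 14 enzyme pairs, with 3 extract libraries (filled circles, above) and 3 water libraries (open squares, below) per pair and a line at equal levels, ordered by the difference between groups. Aars over Aars2 lies at 9.40 to 13.8 in extract and 7.27 to 7.94 in water libraries. Of the pairs drawn, only Iars over Iars2 lies below 1 in every library, and Farsa and Farsb were not paired with Fars2.

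The 20 amino acids divide between class I and class II synthetases, which have unrelated catalytic folds. Among cytosolic members, 4 of 9 class I enzymes (Lars, Mars, Yars and Cars) and 2 of 11 class II enzymes (Aars and Nars) were higher at limma's unadjusted p below 0.05, as were 6.50% of all tested genes. The median log2 fold changes were 0.24 for class I and 0.15 for class II, and the difference between the classes was not tested. Eprs holds a domain of each class and was left out of this count. The members lie on 15 chromosomes, so they are not a genomic cluster.

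Genes that act around the charging step had list medians from 0.11 to 0.18 on the log2 scale. Of 4 genes for proofreading of charged tRNA, 0 passed limma's adjusted threshold, with a list median of 0.18. Only 1 was higher at limma's unadjusted p below 0.05, against 6.50% of all tested genes. That gene was Dtd2, a deacylase, with 11.4, 10.8 and 12.5 FPKM in extract livers, against 10.4, 8.95 and 7.32 FPKM in water livers (log2 fold change 0.36, limma adjusted p = 0.443). Of 12 genes for tRNA maturation and delivery to the ribosome, 0 passed, 0 were at unadjusted p below 0.05 and the median was 0.11. Eef1a1, the factor that carries charged tRNA to the cytosolic ribosome, had 2624, 2594 and 2798 FPKM in extract livers, against 2700, 2387 and 2315 FPKM in water livers. The 3 genes of the mitochondrial amidotransferase, which finishes the glutamine tRNA that Ears2 first charges with glutamate, had a median of 0.11, with 0 at unadjusted p below 0.05.

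The ATF4 amino acid response list, which holds other genes of the same pathway, with Atf4 and Eif2ak4 themselves, was divided between both directions. Of its 32 genes 22 were tested, 10 with positive and 12 with negative log2 fold changes and a median of -0.03. Of these, 0 passed limma's adjusted threshold. At unadjusted p below 0.05, 1 was higher in extract (Slc38a2, an amino acid transporter) and 2 lower (Gdf15, a stress hormone, and Vldlr, a lipoprotein receptor). Over all tested genes 6.50% were higher and 3.82% lower at that level. Slc38a2 had 56.98, 66.6 and 42.3 FPKM in extract livers, against 42.7, 27.6 and 43.04 FPKM in water livers, and its groups overlapped. Gdf15 had 1.66, 1.27 and 0.76 FPKM in extract livers, against 4.16, 3.08 and 2.68 FPKM in water livers, with no overlap (log2 fold change -0.96, limma adjusted p = 0.160). Chac1, an enzyme that degrades glutathione, had 9.73, 5.77 and 4.55 FPKM in extract livers, against 1.16, 2.84 and 6 FPKM in water livers.

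Atf4 itself had 52.2, 54.6 and 54.6 FPKM in extract livers, against 58.3, 38 and 39.6 FPKM in water livers, and water 1 lay above all extract libraries. Eif2ak4, which encodes GCN2, had 1.63, 1.53 and 1.73 FPKM in extract livers, against 1.38, 1.92 and 1.91 FPKM in water livers, with full overlap. Trib3, a pseudokinase induced by ATF4, had 6.83, 4.25 and 21.5 FPKM in extract livers, against 6.11, 4.65 and 5.16 FPKM in water livers, so that extract 3 alone stood high. Asns, the asparagine synthetase, was too low for the test and had 1.78, 2.48 and 0.20 FPKM in extract livers, against 0.27, 0.20 and 0.15 FPKM in water livers. Extract 1 and 2 stood high for Asns while extract 3 matched water 2, a different order of libraries from that of Trib3.

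**Figure D4:**
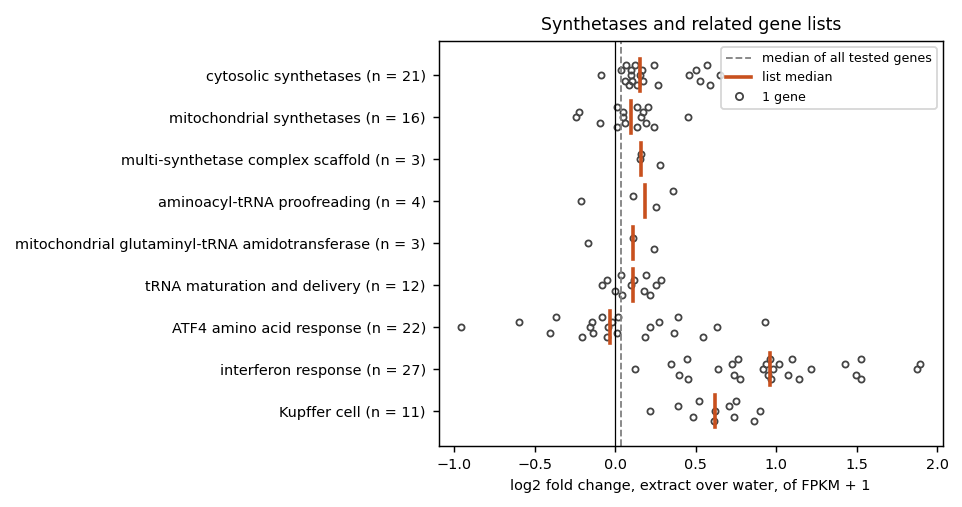
Log2 fold change of FPKM + 1, extract over water, for each tested gene (open circles) of the cytosolic and mitochondrial synthetases and of related lists, with the list median as a bar and the median of all tested genes as a dashed line. The ATF4 list spreads from -0.96 to 0.93 around a median of -0.03, while the interferon response and Kupffer cell lists have medians of 0.96 and 0.62.

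Interferon-response and macrophage genes were higher in the same extract livers, and their part in the synthetase values was not tested. All 27 tested interferon-response genes had a positive log2 fold change, against 57.5% of all tested genes. Of the 27, 19 were higher at limma's unadjusted p below 0.05, against 6.50% of all tested genes, and 0 passed the adjusted threshold. All extract values lay above all water values for 12 of the 27, against 10.0% of all tested genes, and the groups of the others overlapped. Ddx58, the RNA sensor RIG-I, had 8.98, 10.3 and 7.44 FPKM in extract livers, against 3.39, 4.00 and 4.67 FPKM in water livers (log2 fold change 0.98, limma adjusted p = 0.0882). The summed level of the list was 284 to 695 FPKM in extract livers and 195 to 254 FPKM in water livers, with extract 3 the lowest extract library. Wars, the cytosolic tryptophanyl-tRNA synthetase and a known interferon-induced gene in human cells, had 6.33, 4.74 and 6.79 FPKM in extract livers, against 5.30, 6.09 and 4.88 FPKM in water livers. The groups overlapped (log2 fold change 0.11, limma adjusted p = 0.890).

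The liver's own macrophages are Kupffer cells, and all 11 of their markers had a positive log2 fold change, against 57.5% of all tested genes. Of the 11, 9 were higher at limma's unadjusted p below 0.05, against 6.50% of all tested genes, and 0 passed the adjusted threshold. The groups did not overlap for 7 of them, against 10.0% of all tested genes separated in that direction. C1qa, a complement subunit, had 45.3, 59.3 and 46.0 FPKM in extract livers, against 28.9, 25.3 and 24.9 FPKM in water livers. The Kupffer markers summed to 219 to 333 FPKM in extract livers and 136 to 161 FPKM in water livers, and none was listed at 0. Sinusoidal endothelial markers summed to 106 to 127 FPKM in extract and 125 to 148 FPKM in water livers. All 8 of these had negative log2 fold changes, 1 of them at limma's unadjusted p below 0.05, against 3.82% of all tested genes lower. Stellate cell markers summed to 108 to 137 FPKM in extract and 87.1 to 118 FPKM in water livers. For cholangiocyte markers the sums were 18.4 to 31.9 FPKM and 12.3 to 19.4 FPKM. Markers of T and NK cells summed to 2.92 to 3.88 FPKM in extract and 2.31 to 3.02 FPKM in water livers, and of B cells to 0.89 to 1.57 FPKM and 1.02 to 1.90 FPKM. Neutrophil markers summed to 5.88 to 7.69 FPKM in extract and 5.36 to 7.12 FPKM in water livers. The 6 red cell genes summed to 798 to 969 FPKM in extract and 1167 to 3350 FPKM in water livers, with Hba-a1, a haemoglobin chain, the most abundant. Of these 6, 5 had negative log2 fold changes, where 57.5% of all tested genes had positive ones. At limma's unadjusted p below 0.05, 3 were lower, against 3.82% of all tested genes, and 0 passed the adjusted threshold. All extract values lay below all water values for 2, against 5.88% of all tested genes. Alas2, the erythroid enzyme of haem synthesis, had 40.8, 63.02 and 24.6 FPKM in extract livers, against 10.3, 29.5 and 31.9 FPKM in water livers.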

How the data were processed

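Poly(A)-selected RNA of mouse liver was sequenced as 6 libraries, per the labels' protocols. The submitters' processing notes name RSEM 1.2.12, the aligners Bowtie2 2.2.5 and HISAT2 2.0.4, the build GRCm38 and DESeq2 1.4.5, without saying how each was used. The deposited table holds 1 FPKM value per gene and library, made by the authors. Its headers name no unit, which was inferred from unequal library sums. Of 22899 rows 5161 were blank. FPKM values depend on the most abundant transcripts, and whether counting used strand is not given in the sources used here. Depth is unknown.

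The filter for low values was 1 FPKM, reached in 3 libraries or more, and 37 of the 38 members passed. Tests used limma (3.58.1, R 4.3.3) with a trended prior and no block, and Benjamini-Hochberg adjustment over all 10282 genes. The procedure was tested on simulated data in which genes varied independently. Planted log2 changes of 1 and 2 were recovered in 90.8% and 99.2% of cases, with 5.93% false calls. No member differed by as much, so the simulation does not show how often changes of the members' size are found. No count-based test was run, as no counts were given.

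The members, lists and classes were chosen with earlier results of these data known. Every member is given by level, apart from 1 that is counted in the totals but not reported here. Fold changes were printed for members whose groups did not overlap or whose unadjusted p was below 0.05, and for their partners. From related lists, genes among the smallest p and Atf4, Eif2ak4, Asns, Trib3 and Ddit3 were named. Eef1a1, Exosc6, Rab3gap2, Alb and red cell genes were chosen after their values were seen. Gene positions and promoters are from RefSeq (GRCm38.p6), and strands and exon overlaps from GENCODE M21, of the same build. Alternatives covered scaling, pseudocount, filters, prior, block and leaving out each library.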

Additional observations from a re-analysis of the deposited data

How the results depend on the processing

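Of the members, 0 passed limma's adjusted threshold in the main fit or in any of 13 alternatives, and at limma's unadjusted p below 0.05 there were 7 to 10, where 7.17% to 15.5% of all genes tested were at that level. The count of 10, of which 8 were higher, was without water 1, where the share of all genes was 15.5%. The cytosolic median log2 fold change stayed between 0.10 and 0.21 and the mitochondrial one between 0.05 and 0.15, also with Tarsl2 counted as mitochondrial. Genes called over the whole table, 5 in the main fit, numbered 0 with median centring, with no filter on low values or with the replicate block, 2 with quantile normalization or a pseudocount of 0.1, and 0 to 49 on leaving out 1 library; the cause was not tested. The log2 fold change of Aars2 was -0.03 with median centring or quantile normalization (-0.0327 and -0.0317) and -0.14 to 0.11 on leaving out 1 library, and that of Tars was -0.0243 without water 1 and up to 0.15 on leaving out another library. The fold changes of the other 21 members tested under these alternatives kept their sign. The number of members lower without overlap, 1 in the main count, was 2 with median centring or quantile normalization, 0 at a mean of at least 5 FPKM and 1 to 3 on leaving out 1 library; alternatives to this count and to its counterpart were chosen after seeing the data. Extract and water libraries share replicate numbers, but same-numbered libraries did not deviate together (correlations of -0.017, -0.177 and 0.117), and only extract 3 correlated best with its own number. With the replicate block 7 members were at unadjusted p below 0.05, as without it, and 0 were called. Unknown depth limits the lowest members, Mars2, Pars2 and Wars2, most.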
